A study of Mus musculus with 9 samples.

Results

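A set of 10 genes of branched-chain amino acid catabolism was followed in the liver of mice kept on a high-fat diet and given the β2-adrenergic agonist formoterol or its vehicle. They are Bckdha, Bckdhb, Dbt and Dld (the subunits of the branched-chain ketoacid dehydrogenase), Bckdk and Ppm1k (its kinase and phosphatase), Bcat2 (an aminotransferase), and Ivd, Mccc1 and Mccc2 (enzymes of the leucine branch). The 10 genes were selected by symbol, with earlier results of the same formoterol comparison in view, out of 56748 genes in the count table. All 10 were among the 13042 genes that passed the filter on low counts. Because the choice rested on this contrast, the differences between formoterol and vehicle in these 10 genes are given as a description. Counts of members that passed a threshold are set beside those over all genes only for completeness, and carry no weight as tests of these genes.

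All mice were male C57BL/6J animals that received a high-fat diet for 20 weeks from an age of 8 weeks and were 28 weeks old at the end. During the last 4 weeks they were injected intraperitoneally each day with formoterol at 1 mg/kg (5 mice) or with DMSO, the vehicle (4 mice). No group on another diet enters, so every value below belongs to diet-fed animals. Poly(A) RNA of whole liver was sequenced, with total counts per library of 12336665 to 20339665. The table's columns carry animal codes: M46, M47, M48, M49 and M50 were read as formoterol and M56, M58, M59 and M60 as vehicle from the last letters of the column names and the group sizes of 5 and 4, and every direction below rests on that reading.

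Leucine, isoleucine and valine are first transaminated to branched-chain ketoacids, a step that takes place mostly outside the liver, and the liver oxidises the ketoacids that reach it. The dehydrogenase complex commits them to oxidation: its E1 component is built from the Bckdha and Bckdhb proteins, Dbt forms the E2 core and Dld is the E3 flavoprotein shared with other dehydrogenases. Phosphorylation of the Bckdha protein by Bckdk switches the complex off, and Ppm1k removes the phosphate.

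The promoters of 3 members are shown because Bckdha and Bckdhb encode partners in one enzyme yet differed in opposite directions, and because Ppm1k alone among the 9 members searched held a half-site of the cAMP response element, the sequence bound by the CREB factors that act downstream of β-adrenergic receptors. Each is the 250 bases before the gene's start, 5′ to 3′ on the gene's strand, taken from RefSeq on GRCm38.p6 (the counts themselves are on mm39), with capitals marking the motif matches.
Bckdha, chr7:25658762-25659011, minus strand: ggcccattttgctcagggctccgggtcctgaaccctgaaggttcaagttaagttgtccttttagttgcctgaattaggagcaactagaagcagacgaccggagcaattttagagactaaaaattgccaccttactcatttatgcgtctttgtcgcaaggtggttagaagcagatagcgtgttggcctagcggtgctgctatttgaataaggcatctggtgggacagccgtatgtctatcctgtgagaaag
Bckdhb, chr9:83924887-83925136, plus strand: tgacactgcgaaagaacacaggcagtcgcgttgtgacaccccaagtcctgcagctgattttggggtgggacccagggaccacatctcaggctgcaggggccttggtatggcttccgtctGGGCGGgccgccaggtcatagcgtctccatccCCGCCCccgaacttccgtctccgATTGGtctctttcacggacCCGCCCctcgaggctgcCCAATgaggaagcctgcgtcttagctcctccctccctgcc
Ppm1k, chr6:57535488-57535737, minus strand: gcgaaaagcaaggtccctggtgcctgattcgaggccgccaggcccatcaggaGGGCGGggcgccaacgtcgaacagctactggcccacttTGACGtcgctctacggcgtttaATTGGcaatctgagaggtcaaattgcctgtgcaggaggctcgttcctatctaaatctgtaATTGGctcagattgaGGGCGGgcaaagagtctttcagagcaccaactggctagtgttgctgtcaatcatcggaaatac

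The motifs searched, on both strands, were the cAMP response element TGACGTCA, its half-site TGACG (which the full element contains), the CCAAT box CCAAT and the GC box GGGCGG. Promoters of 9 of the 10 members were in the table, in 11 windows since Bcat2 and Bckdhb have 2 starts each, and Dbt was not. The full element was in the windows of 0 of the 9 genes and in 1.55% of all 32851 promoter windows. The half-site was in 1 of the 9, 160 bases before the start of Ppm1k, against 17.8% of all windows. A CCAAT box was in 7 of the 9 (33.9% of all windows) and a GC box in 3 of the 9 (32.7%). The members are counted by gene and the background by window, so the shares are not in the same unit. The Bckdha window held none of the 4 motifs, 8 CpG and 47.6% G and C, whereas the Bckdhb window printed, the first of its 2, held 2 CCAAT boxes, 3 GC boxes, 15 CpG and 63.2% G and C. The other Bckdhb window (chr9:83948531-83948780) held none of the 4 motifs, 1 CpG and 36.4% G and C, less than Bckdha, so the contrast depends on the start used. These matches describe the letters in the windows only.

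The formoterol libraries M49 and M46 stood apart in opposite directions in summed marker levels, given in CPM (counts relative to library size, scaled with the trimmed mean of M-values, TMM). In M49 the 7 stellate cell and fibroblast markers summed to 353 CPM, against at most 229 in the other formoterol libraries and 221 to 385 in vehicle. Its 5 cholangiocyte markers summed to 258 CPM, against at most 113.55 in the other formoterol libraries and 81.7 to 195 in vehicle. M46 had the lowest sums of all 9 libraries for stellate cells (72.5 CPM), cholangiocytes (70.1), endothelial cells (24.98), macrophages (44.7) and T, NK and B cells (0.407). The next lowest libraries stood at 178 CPM for stellate cells, 70.6 for cholangiocytes, 50.5 for endothelial cells, 78.6 for macrophages and 2.93 for T, NK and B cells. The 7 hepatocyte markers summed to 98869 to 137749 CPM in formoterol, lowest in M49, and to 83495 to 95951 CPM in vehicle. All 5 formoterol sums were thus above all vehicle sums. Of the 7 markers, 4 were higher in formoterol at an unadjusted p under 0.05 (edgeR), beside 9.03% of all genes tested. The sums weight abundant genes most: Apoa1, a marker in this sum, averaged 15874 CPM in formoterol and 8933 CPM in vehicle. The part of these cell types in the results was not tested. A member's value without a library is given where leaving that library out moved the log2 fold change by over 1.5 times. For M49 it is also given where M49 alone made the groups overlap. Among the other pathway genes, adjusted p values without M49 are given for all that passed and for several that did not. In bulk liver, fewer cells of a type and less RNA per cell cannot be told apart.

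Across all genes, edgeR's quasi-likelihood test called 0 genes at an adjusted p under 0.05 (0% higher and 0% lower of 13042, with 0.136 as the smallest Benjamini-Hochberg adjusted p). With no adjustment, at p under 0.05, it called 9.03% of the genes higher and 5.53% lower in formoterol, a split that turned to 467 higher and 1292 lower when libraries were scaled by their totals alone. DESeq2 called 2.31% higher and 0.845% lower of the 9585 genes to which it gave an adjusted p. Without M49, edgeR called 3.47% higher and 2.04% lower of 12736 genes. In 2.45% of the genes every formoterol library lay above every vehicle library, and in 2.38% below.

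Among the 10 members, edgeR accordingly called 0 in either direction. At an unadjusted p under 0.05 it had 2 higher and 1 lower. DESeq2 had 1 higher and 1 lower, and edgeR without M49 had 2 higher and 1 lower. The median log2 fold change of the 10 was 0.25, with 9 above 0, beside a median of -0.01 and 48.7% above 0 over all genes tested. With libraries scaled by totals alone, which shifted the median of all genes by -0.15, the members' median was 0.09. Since the members were selected on this contrast, nothing is read from these counts.

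The E1α gene and the E2 gene stood farthest apart. Bckdha (ENSMUSG00000060376, mm39 chromosome 7, 25329371 to 25358406, minus strand) encodes the α chain of E1, which carries the phosphorylation sites of the complex. It stood at 9.03, 11.3, 8.82, 18.3 and 9.06 CPM in M46, M47, M48, M49 and M50. In M56, M58, M59 and M60 it stood at 24.5, 17.9, 20.95 and 22.65 CPM. The formoterol libraries other than M49 were all below the lowest vehicle library, and M49 was just above it, so the groups overlapped through M49 alone. The means were 11.3 ± 4.03 CPM (SD, n = 5) in formoterol and 21.5 ± 2.81 CPM (SD, n = 4) in vehicle, a log2 fold change of -0.92 with a standard error of 0.22. Without M49 it was -1.17 with a standard error of 0.17. These values rest on 111 to 429 counts per library. An antisense gene, B3gnt8, overlaps Bckdha by 5155 bases. It had 5, 9, 6, 5 and 18 counts in M46 to M50 and 29, 13, 28 and 32 counts in M56, M58, M59 and M60. Whether the counting used strand is not given in the sources used here.

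Dbt (ENSMUSG00000000340, chromosome 3, 116306719 to 116343630, plus strand) encodes the transacylase core on which the other subunits assemble. It stood at 169.4, 125.8, 152.3, 75.5 and 119.5 CPM in M46 to M50 and at 44.2, 75.8, 60.7 and 60.03 CPM in M56, M58, M59 and M60. The other 4 formoterol libraries were above all vehicle libraries, and M49 lay just under the highest vehicle library. The means were 128.5 ± 35.8 CPM (SD, n = 5) and 60.2 ± 12.9 CPM (SD, n = 4), a 2.14-fold difference (log2 1.09, standard error 0.22). Without M49 the log2 fold change was 1.23 with a standard error of 0.18. Dbt had 759 to 2349 counts per library.

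**Figure D1:**
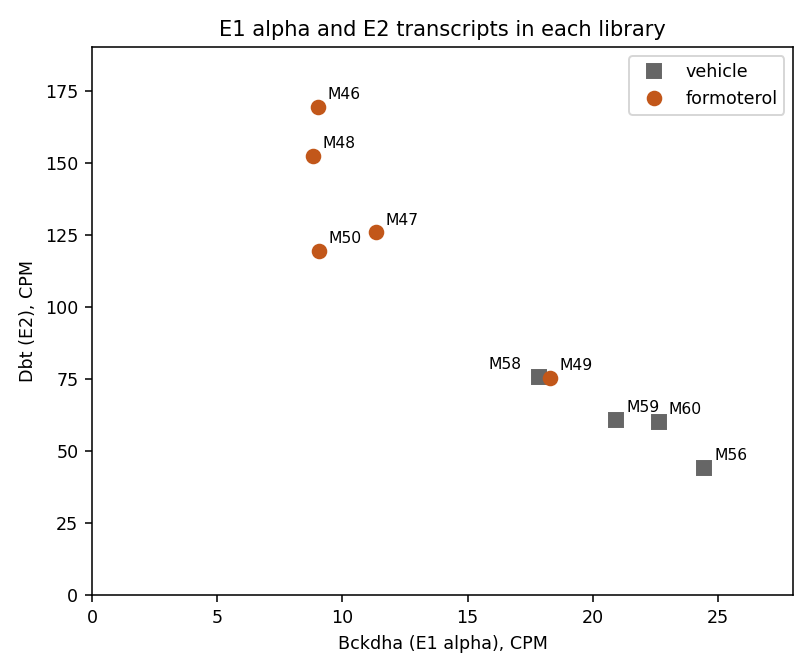
Bckdha against Dbt in the 9 liver libraries, each axis in TMM-scaled CPM, with 1 point per library coloured by group. The vehicle libraries sit at high Bckdha (17.9 to 24.5 CPM) and low Dbt (44.2 to 75.8 CPM), 4 formoterol libraries sit at the opposite corner, and M49 lies beside the vehicle libraries.

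Bckdhb (ENSMUSG00000032263, chromosome 9, 83807198 to 84006293, plus strand) encodes the β chain, the partner of the Bckdha protein in E1. It stood at 41.7, 39.6, 51.5, 38.5 and 41.5 CPM in M46 to M50 and at 37.9, 37.8, 32.6 and 33.8 CPM in the vehicle libraries. Every formoterol library was above every vehicle library, by a margin of less than 1 CPM between M49 and M56. Bckdhb was the 1 member of 10 whose groups did not overlap, beside 2.45% of all genes tested in that direction. The means were 42.5 ± 5.18 and 35.5 ± 2.71 CPM, a log2 fold change of 0.26 with a standard error of 0.14. It was 0.17 without M48 and 0.10 with libraries scaled by totals alone. The difference in Bckdhb was thus opposite in sign to that in Bckdha and smaller in size.

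Dld (chromosome 12, 31381276 to 31401452, minus strand) encodes the dihydrolipoamide dehydrogenase that several complexes share. It stood at 80.9, 68.8, 83.7, 69.3 and 40.8 CPM in M46 to M50 and at 68.0, 61.1, 67.2 and 60.7 CPM in vehicle. M50 was the lowest library and M48 the highest, both in the formoterol group. The log2 fold change was 0.10 with a standard error of 0.18, and it changed sign to -0.05 with libraries scaled by totals alone. It was 0.02 without M46, 0.0042 without M48 and 0.23 without M50.

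Expressed per kilobase of the gene length deposited with the counts, so that genes can be compared with each other, the E1 pair differed in balance. The Bckdha to Bckdhb ratio of CPM per kilobase was 0.58 ± 0.086 (SD, n = 4) in vehicle and 0.26 ± 0.11 (SD, n = 5) in formoterol (0.212 ± 0.045 without M49, SD, n = 4). By library the ratio was 0.206, 0.273, 0.163, 0.452 and 0.208 in M46 to M50 and 0.613, 0.449, 0.610 and 0.636 in the vehicle libraries. M49 and M58 nearly coincide and the other libraries of the groups are separate. The Dbt to Bckdha ratio was 1.65 ± 0.57 in vehicle and 7.31 ± 3.28 in formoterol (8.55 ± 2.01 without M49, SD, n = 4), with M49 at 2.34 inside the vehicle range of 1.03 to 2.41 and the other formoterol libraries at 6.29 to 10.6. These ratios are of RNA, and the complex's protein was not measured here.

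Bckdk and Ppm1k act on the Bckdha protein in opposite directions. Bckdk, the kinase (chromosome 7, 127503254 to 127509393, plus strand) stood at 11.8, 8.79, 8.17, 7.46 and 7.71 CPM in M46 to M50 and at 8.33, 7.82, 9.37 and 7.66 CPM in vehicle. Apart from M46, the formoterol libraries lay within or just under the vehicle range. Its log2 fold change was 0.08 with a standard error of 0.19, and the sign turned to -0.06 without M46 and to -0.08 with scaling by totals. It was 0.13 without M49, 0.14 without M59 and 0.04 without M60. With 95 to 192 counts per library Bckdk was the least counted member.

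Ppm1k, the phosphatase (chromosome 6, 57483487 to 57512453, minus strand) stood at 102.3, 82.1, 90.8, 41.8 and 76.5 CPM in M46 to M50 and at 49.2, 63.0, 49.6 and 69.1 CPM in vehicle. The formoterol libraries other than M49 were above all vehicle libraries, and M49 was the lowest of all 9. The log2 fold change was 0.45 with a standard error of 0.22, and 0.60 with a standard error of 0.16 without M49. With scaling by totals it was 0.27. The Bckdk to Ppm1k ratio per length was 0.193 ± 0.057 in formoterol and 0.242 ± 0.060 in vehicle, with overlapping groups. Without M49, which had the highest formoterol ratio at 0.291, the formoterol mean was 0.168 ± 0.017 (SD, n = 4), and its difference from vehicle was larger than the SD of either group. The groups still overlapped without M49, with M46 at 0.188 above vehicle library M60 at 0.181.

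Bcat2 (chromosome 7, 45219577 to 45239135, plus strand) encodes the mitochondrial aminotransferase, which is best known from muscle and fat. It stood at 14.97, 18.2, 22.2, 11.6 and 24.1 CPM in M46 to M50 and at 15.8, 17.0, 12.4 and 21.3 CPM in vehicle, with the groups interleaved. The log2 fold change was 0.13 with a standard error of 0.22, and -0.06 with scaling by totals. With 1 library left out it ran from 0.0021 (without M50) to 0.28 (without M60), with 0.01 without M59, 0.04 without M48 and 0.26 without M49. The markers of other tissues that carry Bcat2 were low: the 4 adipocyte markers summed to at most 0.975 CPM with Plin1 at 0 in every library, and the 4 skeletal muscle markers summed to 0.317 to 1.66 CPM, with Acta1 and Ckm at 0 in every library and 1 of the 4 above 1 CPM in some library. Bcat2 had 184 to 410 counts per library and overlaps the antisense RNA 0610005C13Rik by 5175 bases, which had 1088 to 2389 counts, so the Bcat2 value is uncertain. Its cytosolic counterpart Bcat1 had 0 counts in every library, and a count of 0 allows up to 0.243 CPM in the shallowest of them, counting error only.

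In the leucine branch, Ivd (chromosome 2, 118692435 to 118713390, plus strand) encodes isovaleryl-CoA dehydrogenase, which oxidises the leucine-derived acyl-CoA. It stood at 140.1, 159.3, 125.6, 108.0 and 159.2 CPM in M46 to M50 and at 88.8, 109.4, 90.8 and 131.9 CPM in vehicle. M49 lay among the vehicle libraries, and M58 and M60 among the formoterol libraries. The log2 fold change was 0.40 with a standard error of 0.17, and 0.23 with scaling by totals.

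Mccc1 (chromosome 3, 36013461 to 36054827, minus strand) and Mccc2 (chromosome 13, 100085038 to 100152147, minus strand) encode the biotin-carrying and the carboxyltransferase subunits of methylcrotonyl-CoA carboxylase. Mccc1 stood at 33.6, 29.98, 39.0, 29.3 and 22.6 CPM in M46 to M50 and at 21.1, 29.5, 22.1 and 32.4 CPM in vehicle. Mccc2 stood at 46.7, 39.8, 40.5, 28.95 and 28.6 CPM in M46 to M50 and at 30.5, 30.1, 27.2 and 32.3 CPM in vehicle. For both subunits M46 and M48 were the highest libraries and M50 was the lowest of the formoterol group. The log2 fold changes were 0.23 for Mccc1 and 0.30 for Mccc2, with standard errors of 0.18 and 0.17. With scaling by totals they were 0.09 and 0.13. Mccc1 was at 0.13 without M48, 0.14 without M56 and 0.35 without M60, and Mccc2 at 0.19 without M46. Their ratio per length was 0.217 ± 0.034 in formoterol and 0.223 ± 0.038 in vehicle, a difference smaller than the SD of either group.

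**Figure D2:**
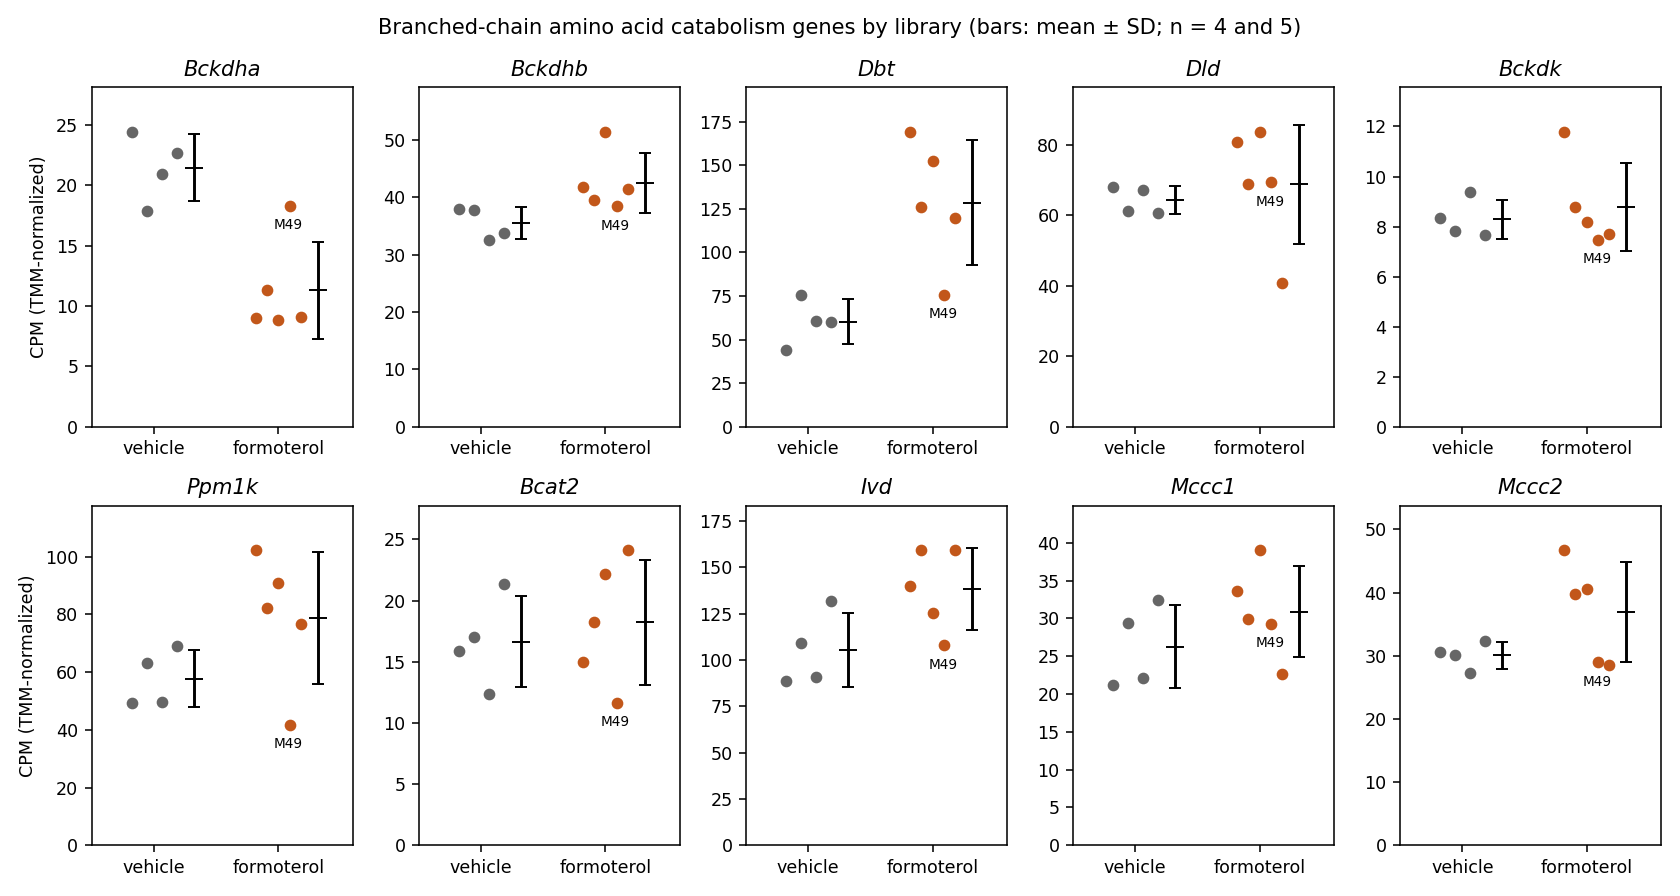
TMM-scaled CPM of the 10 members in each liver library, 1 panel per gene with 5 formoterol and 4 vehicle points and a bar at each group's mean with its SD. Bckdha is the member whose formoterol points lie lower, Dbt the one with the widest separation upward, and the labelled library M49 lies toward the vehicle points in both.

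**Figure D3:**
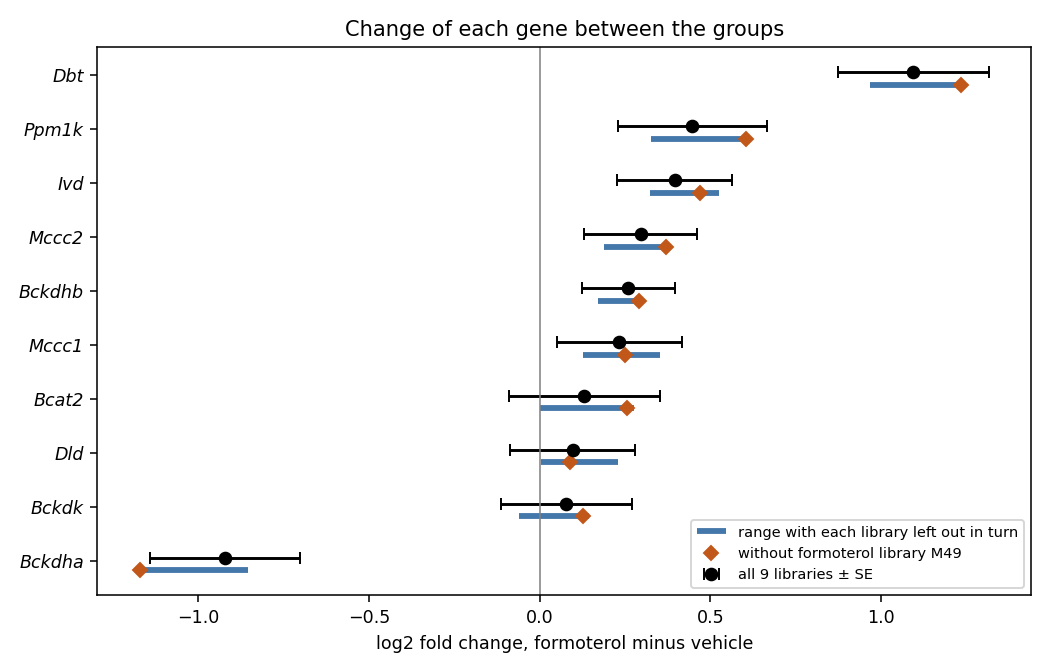
Log2 fold change of each member, formoterol minus vehicle, with its standard error from edgeR, with all 9 libraries and without M49. The 9 members other than Bckdha lie above 0 and Bckdha lies at -0.92, moving to -1.17 without M49.

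The same libraries recurred at the extremes in many members, though the full order differed between them. Among the 9 members other than Bckdha, M49 was the lowest formoterol library in 6 and M49 or M50 was the lowest in all 9, while M46 or M48 was the highest in 7. Over all genes tested, M49 was the lowest formoterol library in 25.9%, M49 or M50 was the lowest in 43.8%, and M46 or M48 was the highest in 40.9%. M49 lay inside the vehicle range in 4 of the 9 members, beside 51.8% of all genes tested. The library pairs are those at the extremes of these selected genes, so the shares carry no weight as a test. The highest formoterol library was M50 for Bcat2 and M47 for Ivd. M46 and M49 are also the libraries at the extremes of the marker sums given above. Whether this bears on the members' values was not tested.

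In vehicle liver the levels per kilobase fell into 4 tiers. Bckdhb (19.7 ± 1.503 CPM per kilobase, SD, n = 4), Ivd (19.1 ± 3.65), Dbt (17.98 ± 3.85) and Dld (17.4 ± 1.06) came first. Bckdha (11.3 ± 1.48), Mccc2 (10.7 ± 0.74) and Ppm1k (9.58 ± 1.65) followed. Bcat2 stood at 4.27 ± 0.94, and Mccc1 (2.40 ± 0.50) and Bckdk (2.24 ± 0.21) were lowest. Neighbours within a tier differed by less than the larger of their SDs, whereas the ends of the first tier (Bckdhb and Dld) and of the next (Bckdha and Ppm1k) differed by more than either SD. In formoterol liver Dbt led at 38.4 ± 10.7 CPM per kilobase (SD, n = 5), ahead of Ivd at 25.1 ± 4.02 and Bckdhb at 23.6 ± 2.87, and Bckdha stood at 5.95 ± 2.12. The place of Mccc1 depends on the length used: the deposited length is 10952 bases, and with its longest protein-coding transcript in GENCODE, 2455 bases, it stood at 10.7 CPM per kilobase in vehicle. With such lengths Ivd stood at 28.7, Dld at 25.2, Bckdhb at 24.1, Mccc2 at 14.1 and Bcat2 at 8.00 CPM per kilobase in vehicle, so the order within and between the tiers depends on the lengths. In formoterol liver the same lengths put Dbt at 38.9 ± 10.9 and Ivd at 37.8 ± 6.04 CPM per kilobase, a difference smaller than either SD.

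A further 52 genes of the pathway and of complexes that share Dld were listed, and 50 were tested. edgeR called 0 of the 50 at an adjusted p under 0.05. At an unadjusted p under 0.05 it had 13 higher and 3 lower, and with scaling by totals alone 4 higher and 5 lower. The 16 became 10 without M56 and 9 without M59. DESeq2 called 2 higher and 0 lower and gave no adjusted p to 6 of the 50. edgeR without M49 called 6 higher and 1 lower. In Mmut, Etfb, Slc25a44, Btd, Mmachc and Dlat, M49 alone made the groups overlap, yet none of these genes passed without it. Slc25a44 and Dlat had log2 fold changes below 0 and the rest of these genes above 0. In the order named, their edgeR adjusted p without M49 was 0.080, 0.186, 0.111, 0.169, 0.210 and 0.152. The median log2 fold change of the 50 was 0.05, with 29 above 0. The groups did not overlap in 2 genes, Auh and Mcee, both higher in formoterol. Over all genes tested, edgeR's unadjusted shares were 9.03% higher and 5.53% lower, and 2.45% lay higher without overlap. The shares called by DESeq2 were 2.31% higher and 0.845% lower, and by edgeR without M49 3.47% and 2.04%. The median log2 fold change of all genes was -0.01, with 48.7% above 0. These lists were also drawn up with earlier results known.

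The isoleucine and valine branches, which run parallel to the leucine branch after the dehydrogenase, had all 8 tested genes above 0, with a median log2 fold change of 0.43. Hsd17b10, which oxidises the hydroxyacyl-CoA of isoleucine, stood at 402, 342, 494, 214 and 305 CPM in M46 to M50 and at 142, 198, 180 and 235 CPM in vehicle. Its libraries overlapped only where M49 lay under M60. Its log2 fold change was 0.90 (standard error 0.22, edgeR adjusted p = 0.159), and DESeq2 gave an adjusted p of 0.00838. Acadsb, the short branched-chain acyl-CoA dehydrogenase, stood at 126.9 ± 27.0 CPM in formoterol and 91.4 ± 7.82 CPM in vehicle (log2 0.47, edgeR adjusted p = 0.224). Hibadh, a dehydrogenase of the valine branch, stood at 581 ± 126.5 and 417 ± 62.2 CPM (log2 0.48, edgeR adjusted p = 0.259). Abat, an aminotransferase that also handles an amino acid formed from valine, had a log2 fold change of 0.08, and -0.07 with scaling by totals.

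Without M49, 4 of these 8 genes passed edgeR's adjusted threshold, all higher in formoterol: Acadsb (adjusted p = 0.0467), Acad8 (0.0386), Hsd17b10 (0.00936) and Hibadh (0.0466). Over all genes edgeR then called 3.47% higher, and the list was drawn up with earlier results known. The median of the 8 was 0.55 without M49. With any other single library left out instead, edgeR called 0 of these genes. M49 was the lowest formoterol library in 5 of the 8 and lay inside the vehicle range in 5, and M46 or M48 was the highest in all 8, beside 25.9%, 51.8% and 40.9% of all genes tested.

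The steps from propionyl-CoA to succinyl-CoA, where isoleucine and valine carbon enters the citric acid cycle, had 6 of 8 genes above 0 and a median of 0.26. Mcee, the methylmalonyl-CoA epimerase, stood at 78.0 ± 13.2 CPM in formoterol and 53.4 ± 10.5 CPM in vehicle (log2 0.55, edgeR adjusted p = 0.191). Mmaa, which serves the cobalamin cofactor of the mutase, stood at 30.5 ± 7.42 and 19.2 ± 3.59 CPM (log2 0.67, edgeR adjusted p = 0.181, and 0.0263 without M49). The mutase itself, Mmut, had a log2 fold change of 0.38, and Mmab -0.17.

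In the late leucine branch 1 of 3 genes was above 0, with a median of -0.08. Auh, the methylglutaconyl-CoA hydratase next after the carboxylase, stood at 44.7 ± 7.20 CPM in formoterol and 32.2 ± 2.61 CPM in vehicle, with no overlap (log2 0.47, edgeR adjusted p = 0.191). Acat1 and Oxct1 had log2 fold changes of -0.08 and -0.14. Each took the other sign when 1 library was left out, Acat1 without M50 and Oxct1 without M48. Oxct1 was low, at 2.33 ± 1.30 CPM in formoterol and 2.57 ± 0.92 CPM in vehicle, with 15 to 91 counts per library.

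Among transporters, the values went both ways. Slc43a1, a plasma membrane carrier of large neutral amino acids, stood at 11.1, 7.51, 7.39, 1.56 and 6.06 CPM in M46 to M50 and at 2.45, 2.55, 1.42 and 2.69 CPM in vehicle. M49 lay among the vehicle libraries and the other 4 were above them all. Its log2 fold change was 1.56 (edgeR adjusted p = 0.173, DESeq2 adjusted p = 0.0155), and without M49 it passed edgeR's threshold (adjusted p = 0.0034). Slc25a44, the mitochondrial carrier of branched-chain amino acids, stood at 20.0 ± 8.93 CPM in formoterol and 34.8 ± 7.87 CPM in vehicle (log2 -0.79, edgeR adjusted p = 0.28). Slc43a2 had a log2 fold change of -0.58.

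The genes that share a cofactor or a subunit with the members were mixed. Of the electron transfer genes, Etfb (log2 1.14, standard error 0.49) and Etfa (0.47, standard error 0.21), whose products take electrons from Ivd, were above 0. Etfdh (-0.35, standard error 0.17) was below. Of the biotin enzymes that serve Mccc1, Btd was at 0.30 and Hlcs at -0.46. The 10 genes of the complexes that share Dld had a median of 0.01 with 5 above 0: Gcsh of glycine cleavage stood at 0.54 (edgeR adjusted p = 0.191) and Gldc of the same system at -0.45 (edgeR adjusted p = 0.257, and 0.0424 without M49). Dhtkd1 stood at 0.38. Genes for the kinases and phosphatases of pyruvate dehydrogenase, regulatory subunit included, were also listed. Of these, Pdk4 stood at 5.63 ± 2.51 CPM in formoterol and 11.6 ± 4.04 CPM in vehicle (log2 -1.04, edgeR adjusted p = 0.195). Pdk1 stood at 0.09, or -0.05 with scaling by totals, and Pdpr at -0.34. Of the regulators linked to this pathway, Klf15 had a log2 fold change of 0.21, Ppara -0.05 and Mlxipl -0.14.

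**Figure D4:**
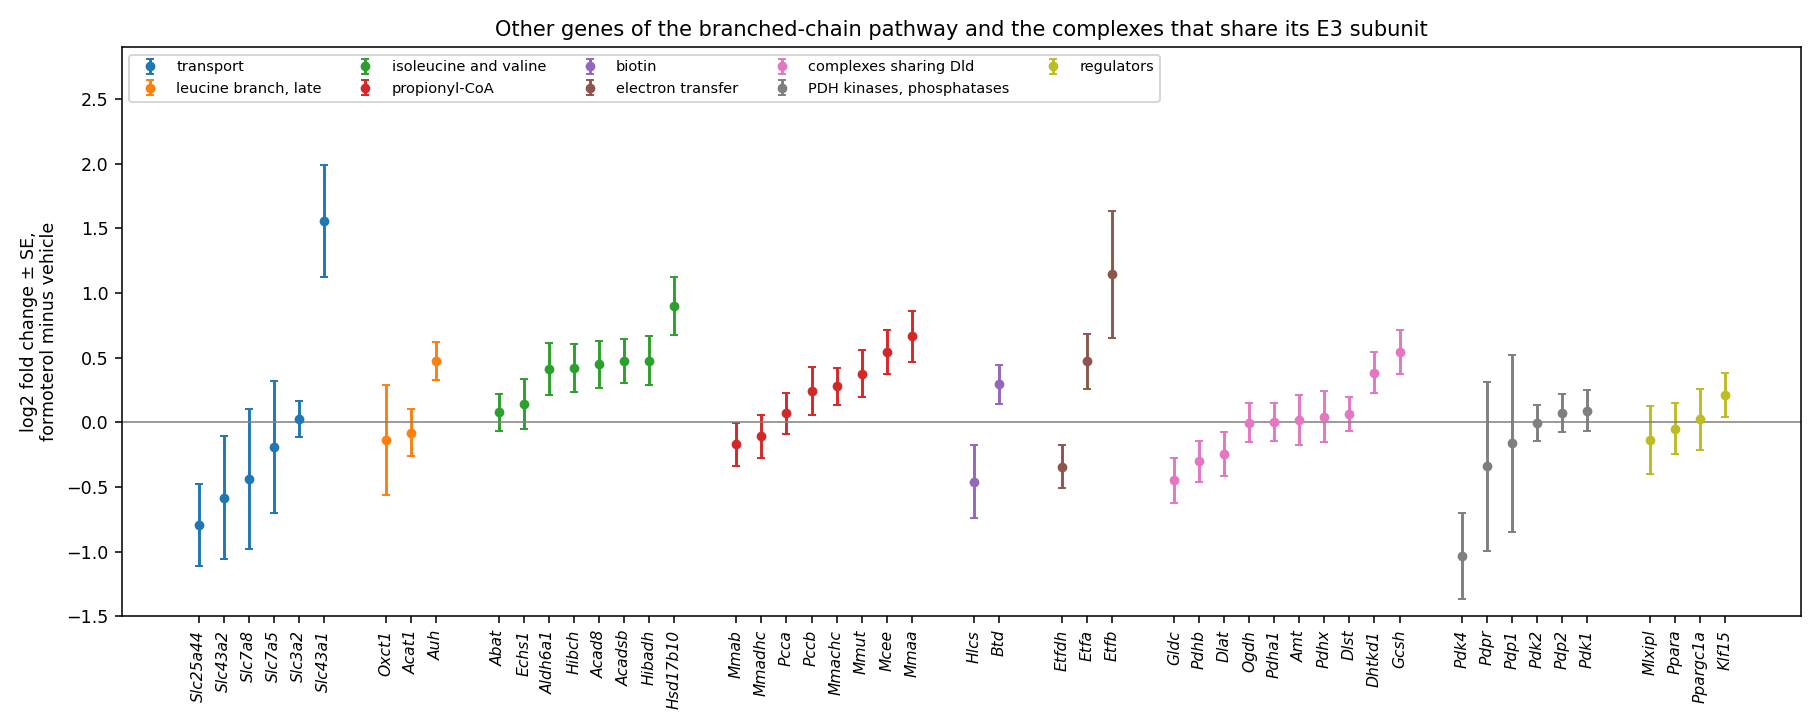
Log2 fold change with its standard error for the other pathway genes tested, formoterol minus vehicle with all 9 libraries, grouped by role. The isoleucine and valine genes all lie above 0, from Abat at 0.08 to Hsd17b10 at 0.90, while the transporters run from Slc25a44 at -0.79 to Slc43a1 at 1.56.

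As a description over the 9 libraries, the genes whose log2 CPM most resembled Bckdha were Trappc9 (Pearson's r 0.984), Plin2 (0.976), Pfkfb3 (0.970), Psap (0.967) and Tlr12 (0.963). Those most like Dbt were Gm10288 (0.985), Apoa1 (0.983), Cnbp (0.980), Cyp2d10 (0.979) and Rpl19 (0.975). All points come from the same 9 libraries and contain the difference between the groups. Rpl19 has many processed copies and Cyp2d10 close paralogs, so reads could be split among them.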

How the data were processed

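Gene counts of 9 liver libraries were deposited by the authors as whole-number read counts per gene with gene coordinates and lengths. Per the submitters' processing notes, HISAT2 2.0.5, DESeq2 and the build mm39 were used. No counting program, strand setting or annotation release is given in the sources used here. From these counts, edgeR 4.0.16 in R 4.3.3 fitted all genes passing filterByExpr (minimum count 10, minimum total 15; 13042 genes) with TMM scaling and a robust quasi-likelihood test of formoterol against vehicle, with Benjamini-Hochberg adjustment at 0.05. Standard errors are the log2 fold change over the root of F. DESeq2 1.42.0 and limma 3.58.1 were alternatives, with other scalings, no filter, and each library left out. The fit was tested on simulated data. The series' design text counts 5 and 4 mice, and the libraries hold 12336665 to 20339665 counts.

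The members and lists were chosen with earlier results of these data known, and 1 listed gene is not reported here. Of other pathway genes, up to 3 per group with the smallest p and those at the lowest and highest fold change are named. Acad8 is named because it passed without M49, and Mmachc and Dlat because M49 alone made their groups overlap. The 5 most correlated genes (log2 CPM, prior count 2) are named for Bckdha and Dbt. Promoters are the 250 bases before RefSeq starts (GRCm38.p6). The use of the longest coding transcript as gene length was chosen after seeing the data.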

Additional observations from a re-analysis of the deposited data

Results flagged for a closer look

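Of 88 groups of values examined, 6 held a library whose gap to its nearest neighbour was large against the group's range, and chance alone gives about 1 in 20. Among the members, Bckdha in formoterol library M49 stood at 18.3 CPM, with the nearest formoterol library at 11.3 CPM. Bckdhb in formoterol library M48 stood at 51.5 CPM, with the nearest at 41.7 CPM. The Bckdha to Bckdhb ratio per length in vehicle library M58 was 0.449, with the nearest at 0.610. The Bckdk to Ppm1k ratio per length in formoterol library M49 was 0.291, with the nearest at 0.188. Among the other pathway genes, Abat in vehicle library M60 stood at 106.4 CPM, with the nearest at 97.8 CPM, and Pdpr in vehicle library M58 stood at 2.72 CPM, with the nearest at 0.815 CPM.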

How the results depend on the processing

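No paired analysis was possible because the columns carry animal codes and no replicate number of the labels. Nor do the sources used here describe pairs: the 5 formoterol and 4 vehicle mice were separate animals, so the groups were compared unpaired. Where edgeR with all libraries called 0 genes (1899 at an unadjusted p under 0.05), 263 were called with no low-count filter, 302 by DESeq2 and 1374 by limma-voom with quality weights, and limma-voom alone called 0 (2034 at an unadjusted p under 0.05). Leaving out 1 library in turn gave 0 to 702 genes (702 without M49, 4 without M60). Of the 50 other pathway genes, 4 were called with no filter, 2 by DESeq2 and 14 with quality weights, and 0 to 7 with 1 library left out (7 without M49). The members' median log2 fold change was 0.093 with library totals and 0.15 to 0.31 with 1 library left out. The log2 difference in the Bckdha to Bckdhb ratio was -1.45 to -1.09 with 1 library left out. The sign of Dld, Bckdk and Bcat2 turned with library totals (-0.05, -0.08 and -0.06), as did Abat (-0.066) and Pdk1 (-0.054). With 1 library left out, Dld ran from 0.0042 to 0.23, Bcat2 from 0.0021 to 0.28, Bckdhb from 0.17 to 0.29, Bckdk from -0.06 to 0.14, Pdk1 from -0.00073 to 0.16, Ppara from -0.19 to 0.045, Oxct1 from -0.52 to 0.042, Acat1 from -0.20 to 0.0040, Pdpr from -0.87 to 0.43 and Mlxipl from -0.33 to 0.13. Bckdha stayed between -1.17 and -0.85 and Dbt between 0.97 and 1.23 over the same settings. The causes of these shifts were not tested. Bckdk, Bckdha and Bcat2, at 95 to 429 counts per library, are the members that depth limits most.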
